A study of Oryza sativa with 7 samples.

Results

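The first and last exon bins of rice loci were compared across 4 tissues. An exon bin is a piece of annotated exon whose reads are counted separately, and the bins of a locus are numbered from 001 upwards. The bin numbered 001 and the bin with the highest number were taken from every locus with 5 or more bins and 200 or more counts, summed over its bins, in each of 7 libraries. This gave 4843 of 37858 loci and 9686 end bins of 178317 bins. The same loci hold 45540 internal bins. They have 5 to 66 bins each, with a median of 10. The loci were thus selected on their summed counts, which depend on their level, and not on the share of counts that a bin holds, which is the measurement described here. Just inside the minimum lay Os01g0105400 and Os01g0512200, each with 200 counts in the second seed library. Just outside it lay Os01g0513700, with 199 counts in the second seed library, and Os03g0616400, with 199 in the first leaf library. The files give no strand, so bin 001 can hold the start or the end of the transcript, and "first" and "last" refer here to bin numbers only.

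A gene can be transcribed from more than 1 start, and its RNA can be cut and polyadenylated at more than 1 place. Both choices change which terminal exons a transcript carries, and with them the untranslated regions, the ends of the protein, or both. In exon counts such a choice appears as a terminal bin that takes a larger or smaller part of the reads of its locus, without any junction read being counted.

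The libraries were made from purified mRNA of Oryza sativa cultivar Ilmi, with no treatment or mutation named in the labels. Leaf (2 libraries) and root (1 library) were taken at 14 days. Panicle (2 libraries) stands for unpollinated flowers, the panicles measuring 0.5 to 1.5 cm, and seed (2 libraries) for grains at 20 to 30 days after pollination. The names of the seed samples give 21 days after pollination. Whether the replicates are separate plants is not stated in the labels, and p-values therefore cover the spread among these libraries alone, which may be technical. All 4 tissues are mixtures of cells, and fewer cells of a type cannot be told apart from less RNA per cell. Bin counts came to between 11989260 in the second seed library and 49312943 in the second leaf library. The loci studied held 38.1% to 61.2% of them, with a median of 543 counts per locus in the second seed library and 2282 in the second leaf library. None of their locus IDs was found in the gene table at hand, so the loci are given by ID, no function is given for them, and the labelled tissues could not be checked against marker genes.

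In the shares of their end bins, libraries did not all group by tissue: the first panicle and first seed libraries were closest to their replicates, and the other replicated libraries were closest to a library of another tissue. The share is the percentage of a locus's counts that fall in 1 bin. Pearson's r across the 9686 end bins was 0.982 between the first leaf library and the root library, and 0.929 between the leaf replicates. The second leaf library was closest to the second panicle library, at 0.983. The panicle replicates reached 0.980 and the seed replicates 0.95. Bins of a locus share its total and genes share a library, so these values describe the libraries and carry no test.

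A related division showed in the row of each table for reads left out because of the position of their mate, which names no bin. It took 0.364% of all counts in the first leaf library, 0.368% in root and 0.444% in the first seed library. In the other 4 libraries it took 0.0266% to 0.215%. The first seed library falls with leaf and root here, although its end-bin shares were closer to those of the second seed library (0.95) and the first panicle library (0.949) than to root (0.946) or the first leaf library (0.938). The labels name no batch. With the libraries split at 0.3% in this row, a division made after the shares were seen, the 3 libraries above it and the 4 below it did not overlap in share for 3015 end bins, or 31.1%, and for 27.0% of internal bins. Over all 55226 bins of these loci it was 27.7%. Of the end bins, 1410 were higher in the 3 libraries and 1605 in the other 4. Root and panicle lie wholly on opposite sides of the division, so a comparison of the 2 within a set is not possible. Leaf and seed have 1 library on each side, and through them a model with the library set as a term can be fitted, on the assumption that the sets differ alike in every tissue.

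**Figure D1:**
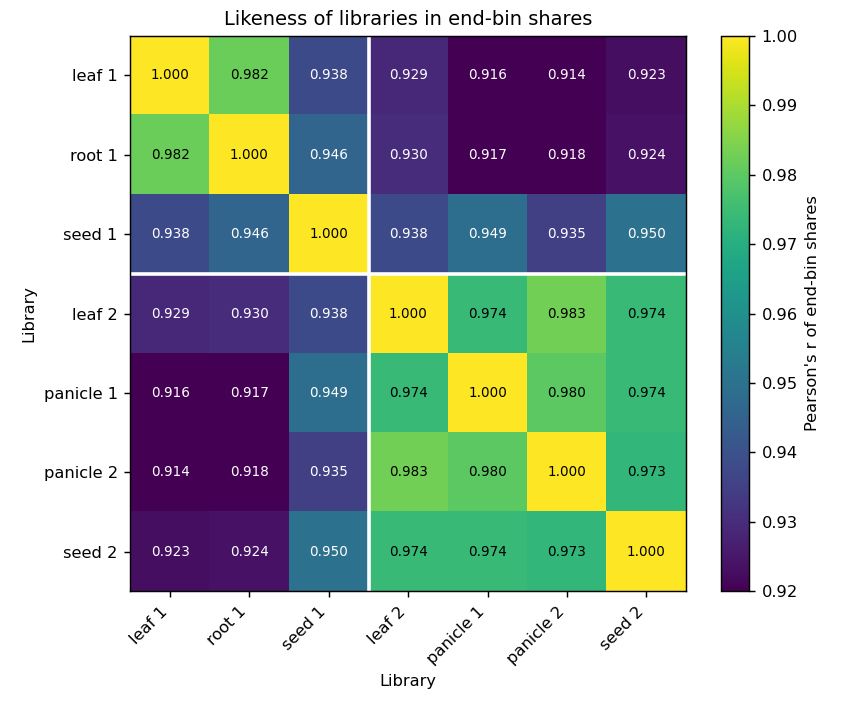
Pearson's r across 9686 end-bin shares (colour scale and printed values) for each pair of the 7 libraries, with white lines between the 3 libraries above 0.3% of counts in the mate-position row and the 4 below. The first leaf library sits closest to root (0.982), the second leaf library closest to the second panicle library (0.983), and the first seed library lies between (0.935 to 0.949 with the libraries of other tissues).

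End bins held a modest part of a locus's counts in every tissue. The median share of both end bins together was 15% and 17.2% in the leaf libraries and 15.3% in the root library. The panicle libraries had 16.0% and 16.7%, and the seed libraries 14.2% and 14.9%. The ranges of leaf and panicle overlapped, and root lay inside the range of leaf. Both seed libraries were below all others, but the second, at 14.9%, was close to the first leaf library, at 15%. In loci of 5 or 6 bins the second seed library (32.8%) was above the first leaf library (32.3%). The same held in loci of 10 to 14 bins (13.5% against 13.3%). In loci of 7 to 9 bins and of 15 or more, both seed libraries were lowest. The leaf replicates differed by more than any tissue means did, so no order among the tissues, seed included, stood out from the spread.

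First and last bins were alike in size. The median of the first bin ran from 4.96% in the first panicle library to 6.34% in root, and that of the last bin from 5.23% in the first seed library to 6.70% in root. Within a locus they were unequal. The larger end held a median of 10.8% to 12.6% and the smaller end 2.28% to 3.19% over the 7 libraries. Which end was larger was mostly kept across tissues. The first bin was above the last in all 7 libraries in 1772 loci, the last above the first in 1840, and the order was mixed or tied in 1231 (25.4%).

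Shares fell with the number of bins. Loci of 5 or 6 bins (929 loci) had a median of 32.1% to 34.9% in both end bins together, close to the 33.3% that equal division among 6 bins would give. In the 1127 loci of 15 or more bins it was 5.55% to 7.17%, below the median of 11.1% that equal division among their bins would give. Bin lengths are not in the files, so a share is not a level per length, and shares are compared here only between libraries for the same bin.

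In 734 loci an end bin was the largest bin of its locus in all 7 libraries, the first bin in 363 and the last in 371. A further 1574 end bins were the largest in 1 to 6 libraries. The percentage of loci whose largest bin was an end bin was 24.9% in the first leaf library, 26.5% in root, 26.0% in the first seed library and 30.2% in the second. It was 36.8% in the second leaf library, and 37.0% and 37.4% in panicle. The 3 lowest values were those of the 3 libraries above 0.3%.

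**Figure D2:**
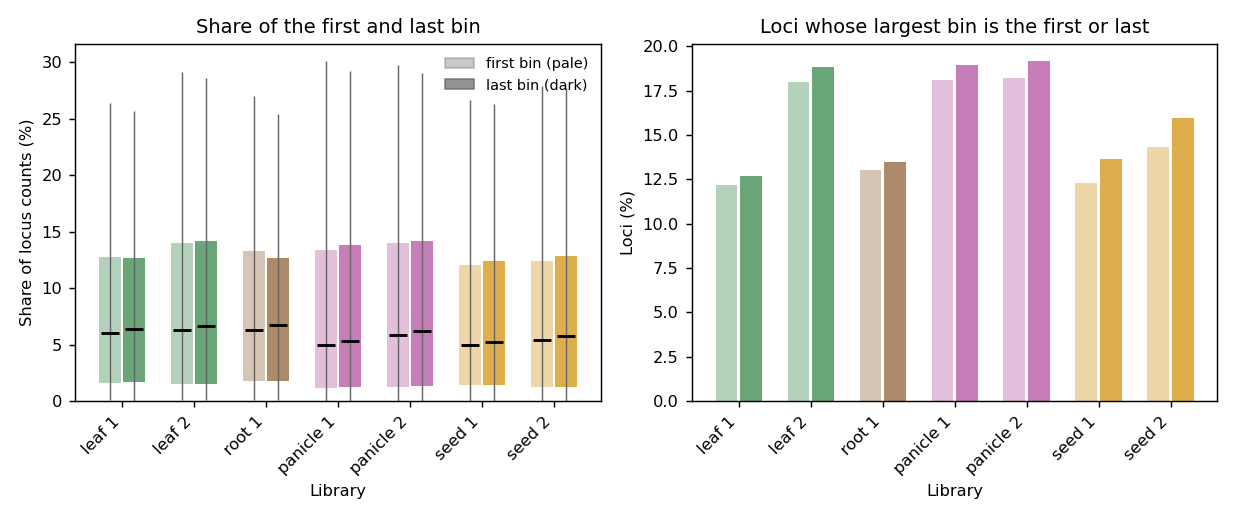
Left, share of locus counts (%) in the first bin (pale) and last bin (dark) over 4843 loci per library, with the median as a black tick, the middle quartiles as a bar and the 5th to 95th percentile as a line. Right, loci (%) whose largest bin is the first or the last. The medians stay between 4.96% and 6.70%, while the right-hand bars are high in the second leaf library and both panicle libraries.

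The change in use of a bin was tested with edgeR's quasi-likelihood differential splicing test on all 7 libraries. It compares a bin's log2 fold change between 2 tissues with that of its locus. Calls needed a Benjamini-Hochberg adjusted p under 0.05 both for the bin, over all 117658 bins tested, and for its locus, over 18512 loci. Of the 9686 end bins, 8775 were tested and 911 were not. A bin had to pass the filter on low counts, and its locus had to keep at least 2 bins. Of the 911, 785 had under 10 counts in every library, and 909 lay in loci with other bins tested. Untested end bins reached up to 1454 counts in a library and a share of up to 99.9%. Of all end bins, 162 were at 0 in the 7 libraries. The 6 tissue pairs share libraries, so their results are not independent. With 1 root library, tests of root take its spread to be that of the other tissues.

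Few end bins passed. Between leaf and panicle 13 of 8775 were called, 7 with the larger share in leaf (against 0.0306% of all bins tested) and 6 with the larger share in panicle (against 0.0153%). Between leaf and seed 11 were called, 6 with the larger share in leaf (0.0238% of all bins) and 5 in seed (0.0119%). Between panicle and seed 11 were called, 2 with the larger share in panicle (0.0085% of all bins) and 9 in seed (0.0195%).

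Root gave fewer calls against leaf and seed. Against leaf 5 were called, 4 with the larger share in leaf (0.00935% of all bins) and 1 in root (0.0034%). Against seed 2 were called, 1 with the larger share in root (0.00425% of all bins) and 1 in seed (0.00255%). Against panicle 13 were called, 10 with the larger share in root (0.0195% of all bins) and 3 in panicle (0.0068%). With the library set as a term in the model, 4 of these 13 remained and no other was called.

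As a percentage of those tested, end bins were called more often than internal bins of the same loci in every pair. The percentages were 0.148% against 0.0595% for leaf and panicle, 0.125% against 0.0526% for leaf and seed, and 0.125% against 0.0275% for panicle and seed. They were 0.0570% against 0.00916% for leaf and root, 0.148% against 0.0298% for root and panicle, and 0.0228% against 0.0114% for root and seed. In the same order, 26, 23, 12, 4, 13 and 5 internal bins were called, beside 13, 11, 11, 5, 13 and 2 end bins. The percentages for leaf and root and for root and seed thus rest on few calls. Bins of a locus are not independent, and the difference between end and internal bins was not tested. An unadjusted p under 0.05 was reached by 2.04% (leaf and root) to 10.5% (root and panicle) of end bins, and by 0.423% to 1.68% of internal bins. The largest of these values is that of the pair lying across the library sets.

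Counting by size took in more end bins than the test, and the directions differed in the pairs with panicle. In the 3 pairs of tissues with 2 libraries each, end bins whose shares did not overlap and whose means were 10 points or more apart numbered 48 of 9686 between leaf and panicle (0.496%, against 0.244% of all bins of these loci), 17 higher in leaf and 31 in panicle. Between leaf and seed there were 30 (0.310%, against 0.163%), 18 higher in leaf and 12 in seed. Between panicle and seed there were 38 (0.392%, against 0.196%). Of these, 30 were higher in panicle and 8 in seed, where the test had called 2 and 9. Replicates themselves lay 10 points or more apart for 271 end bins in leaf, 27 in panicle and 125 in seed, and the first leaf library and the root library for 13. The leaf replicates had a median difference of 1.49 points, larger than the 0.710 points between the first leaf library and root.

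**Figure D3:**
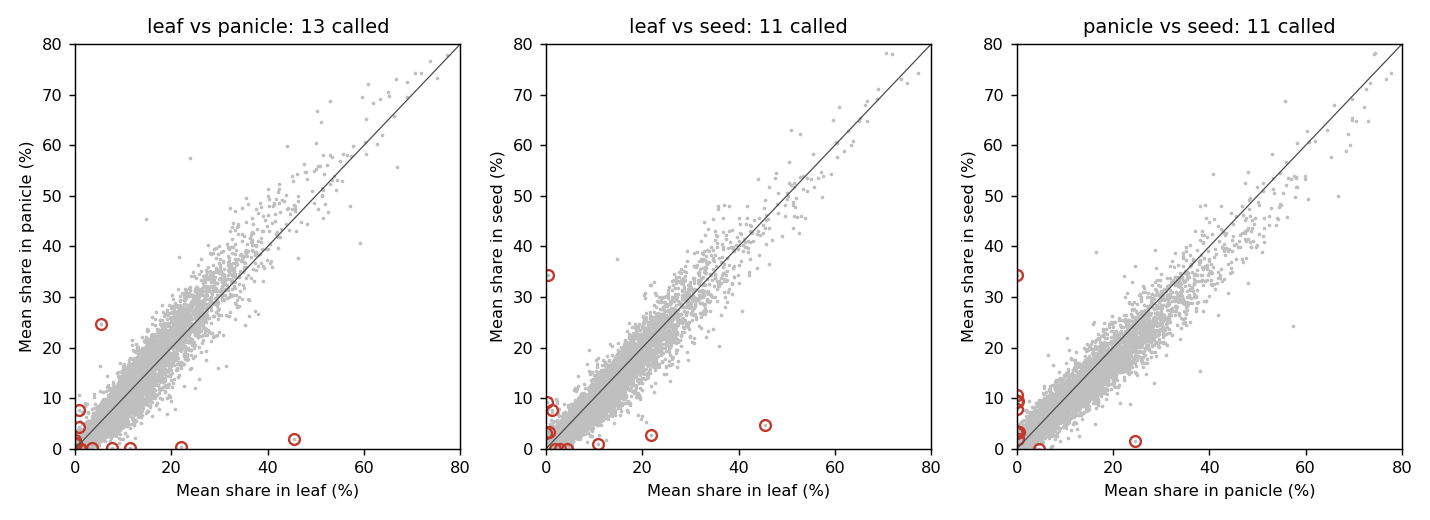
Mean share (%) of each end bin in 2 tissues, for leaf and panicle, leaf and seed, and panicle and seed (grey, 9686 bins), with called bins circled in red (13, 11 and 11) and the line of equal shares. Most called bins lie along an axis, with a share near 0 in 1 of the tissues.

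Altogether 32 end bins of 31 loci were called in at least 1 pair, 15 first bins and 17 last bins. They made 55 calls, because 11 were called in 2 pairs and 6 in 3. In none of the 55 did the libraries of the 2 tissues overlap. The calls rest on the same counts, so this is no separate support, and with 1 root library it is more easily met. The differences in mean share ran from 0.790 to 44.9 points with a median of 6.4, and 14 were of 10 points or more. The mean share was highest in leaf for 10 of the 32 bins, in root for 10, in seed for 7 and in panicle for 5. It was lowest in panicle alone for 16, in leaf alone for 5, in root alone for 5 and in seed alone for 2, and in the other 4 bins several tissues were tied at 0. The pairs gave unequal numbers of calls, and no such tally was made over all end bins. These numbers therefore describe the called bins alone.

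In 36 of the 55 calls no other bin of the locus was called, which does not show that the others did not move. In 15 the neighbouring bin was called in the same direction and in 2 in the opposite direction. Of 37 neighbours tested and not called, 21 had the sign of the end bin, 8 of them with a log2 change of 1 or more. The bin at the far end of the locus was tested in 50 of the 55 and called in none. No locus had both end bins called in the same pair. In 34 of the calls the level of the locus itself differed as well, at an adjusted p under 0.05 and a fold of 2 or more by edgeR's quasi-likelihood test on locus sums. The larger share was in the tissue with the higher level in 15 of these and in the tissue with the lower level in 19. How many of all loci differed in level was not counted, so these numbers describe the calls alone.

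Bins were named by a rule that takes, for each pair and direction, the 2 called bins with the largest difference in mean share, and for each tissue those called against all 3 others. It gave 10 bins. All have the locus and bin number as their only identity. In the results that follow, a log2 change in usage is the bin's log2 fold change less that of its locus, with its standard error, and its p is adjusted over all bins tested by edgeR.

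**Figure D4:**
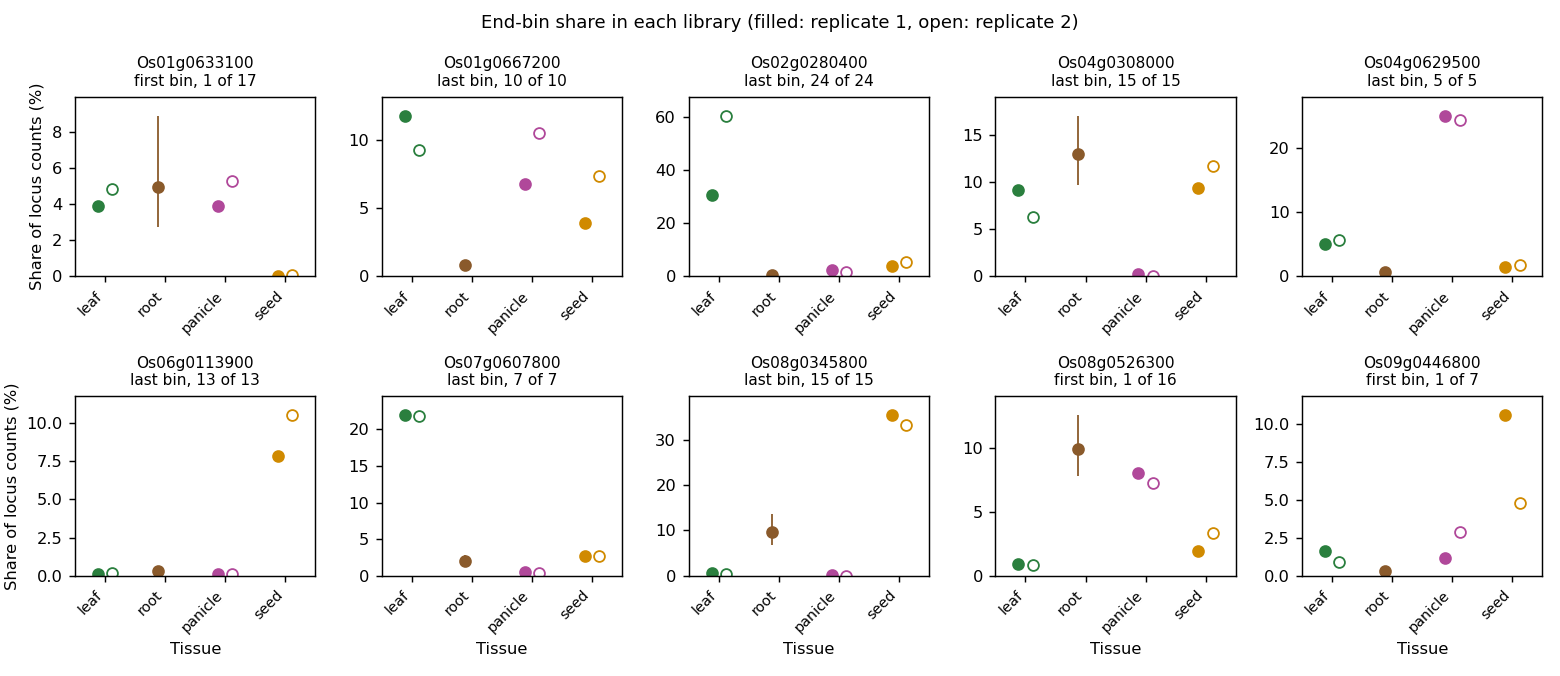
Share of locus counts (%) of the 10 named end bins in each library (filled circles replicate 1, open circles replicate 2, with the 95% Wilson interval on the root library), each panel on its own axis from 0. The 2 leaf libraries of Os02g0280400 lie far apart (30.6% and 60.5%), while the panicle libraries of Os04g0629500 almost coincide (25% and 24.3%).

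In 2 loci the last bin was called with a larger share in leaf than in each of the other 3 tissues. The last of the 24 bins of Os02g0280400 held 30.6% and 60.5% of the locus's counts in leaf. In root it held 0.657% (10 of 1521 counts, 95% Wilson interval 0.358% to 1.21%). The panicle libraries had 2.47% and 1.46%, and the seed libraries 3.86% and 5.57%. The lowest leaf value was above the highest value elsewhere, and the leaf replicates differed from each other by about as much as the lower of them did from the other tissues. The log2 change in usage was 4.59 ± 0.41 (SE) for leaf against panicle, adjusted p = 8.86e-12. Against seed it was 3.39 ± 0.40, adjusted p = 3.34e-06, and against root 6.20 ± 0.63, adjusted p = 2.23e-08. Among the libraries above 0.3% in the mate-position row, the first leaf library stood at 30.6% beside 0.657% in root and 3.86% in the first seed library. Among those below it, the second leaf library stood at 60.5% beside the panicle libraries and 5.57% in the second seed library. These are the shares already given, so they are no separate support, and no test was made within the set above 0.3%. Only this bin of the locus was called, and its neighbour held 3.12% in leaf and 9.19% in panicle. The call against seed was lost without the second leaf library.

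Os07g0607800 has 7 bins, and its last held 22.0% and 21.8% in leaf. The share was 1.98% in root (interval 1.38% to 2.83%), 2.71% and 2.63% in the seed libraries, and 0.559% and 0.327% in the panicle libraries. Leaf replicates were 0.108 points apart here, and no other library came near them. Usage changed by a log2 value of 5.56 ± 0.45 against panicle (adjusted p = 1.13e-07), 3.03 ± 0.39 against seed (adjusted p = 0.000411) and 3.46 ± 0.53 against root (adjusted p = 0.00861). The call against seed was lost in the 4 libraries below 0.3%, and the call against root without either leaf or either panicle library. Bins 5, 6 and 7 moved together: leaf gave them mean shares of 26.5%, 13.8% and 21.9%, and panicle 0.424%, 0.340% and 0.443%. Bins 1 to 3 held 14.8%, 8.91% and 12.1% in leaf and 45.5%, 19.0% and 29.0% in panicle. The level of the whole locus was also higher in leaf, at 251 and 257 CPM (counts scaled to library size) against 64.2 to 72.0 in the other libraries.

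Panicle had 1 end bin of this kind. In Os04g0629500, which has 5 bins, the last held 25% and 24.3% in panicle. It held 4.98% and 5.70% in leaf, 1.41% and 1.81% in seed, and 0.639% in root (interval 0.445% to 0.916%). Panicle stood apart from every other library, and leaf lay above root and seed. Changes in usage, on the log2 scale, were 3.95 ± 0.36 for panicle against seed (adjusted p = 1.10e-05), -5.26 ± 0.51 for root against panicle (adjusted p = 5.08e-05) and -2.23 ± 0.32 for leaf against panicle (adjusted p = 0.00778). The leaf call was lost with the library set as a term and without any 1 of the leaf or panicle libraries. The level of the locus was 84.4 and 80.7 CPM in panicle and 104 and 105 in seed, a difference that was not called, and it was called higher in root, at 210 CPM. The neighbouring bin was not called and held 24.8% in panicle and 29.2% in seed. The end bin alone thus stood at 21.1 and 19.6 CPM in panicle and at 1.47 and 1.90 in seed.

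The largest gains in seed over leaf were also in last bins. Os08g0345800 has 15 bins, of which the last held 35.5% and 33.4% in seed and 9.72% in root (28 of 288 counts, interval 6.81% to 13.7%). It held 0.575% and 0.344% in leaf, 0.0971% in the first panicle library (1 count) and 0 in the second, where a count of 0 allows up to 0.328%. Seed was highest, root lay between, and leaf and panicle were near 0. The log2 change in usage for leaf against seed was -6.29 ± 0.79 (adjusted p = 0.000259). For panicle the fitted change rests on 1 count, and the ratio of the pooled shares is given instead: seed was 680 times panicle (95% counting interval 122 to 26844; adjusted p = 4.94e-05 for the bin) and root 189 times panicle (31.2 to 7728; adjusted p = 0.0123). These calls were lost when either library of the lower tissue was left out, and that of root against panicle also without either leaf library and with voom.

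In Os08g0345800 the bin beside the end went the other way. Bin 14 held 35.3% and 27.2% in leaf and 26.7% in root. The panicle libraries had 16.8% and 23.6%, and the seed libraries 0.464% and 0.382%. It was called in the opposite direction to bin 15 for leaf against seed and for panicle against seed, and in no other end bin called did a neighbour do so. Bins 14 and 15 together held a mean of 34.9% in seed. In leaf the sum was 31.8%, in panicle 20.3%, and it was 36.5% in root. Bin 13 varied little, between 43.3% and 48.7% over the 7 libraries. The locus was far higher in seed, at 1451 and 856 CPM against 13.3 to 143 elsewhere.

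In Os06g0113900 the last of 13 bins held 7.85% and 10.5% in seed. In the other 5 libraries it held between 0.0947% and 0.287% (the latter in root, interval 0.214% to 0.385%). Its log2 change was -6.00 ± 0.84 for leaf against seed (adjusted p = 0.000116) and -6.44 ± 0.85 for panicle against seed (adjusted p = 1.93e-05). The former call was lost without either seed library and the latter without either panicle library. Here the locus was lower in seed, with 48.4 and 52.1 CPM against 318 to 710 elsewhere, so that the bin itself stood at 3.80 and 5.49 CPM in seed and at 0.399 to 2.04 CPM in the others.

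The first bin of Os06g0113900 shows how an end bin can follow the library sets. It was singled out after its values were seen, as it makes this the locus with calls at both ends, in different pairs. It held 7.54% in the first leaf library, 6.97% in root and 2.66% in the first seed library. In the second leaf library it held 0.939%, in panicle 0.688% and 0.410%, and in the second seed library 0.405%. The 3 libraries above 0.3% in the mate-position row were all higher than the other 4. It was called for root against panicle (log2 change 3.69 ± 0.66, adjusted p = 0.0102), and with the library set as a term the change was 0.68 and the call was lost. The call was also lost with voom, with DESeq2 and with the replicate block. It was lost as well without either panicle library and without the first seed library. Over 14 alternatives the adjusted p ran from 0.000110 to 1. Of the 32 called end bins 3 had shares that did not overlap between the sets, and all 3 were among the 13 called for root against panicle. Among all end bins it was 31.1%, but these figures cannot be compared. In every call the libraries of the tissues compared did not overlap, and leaf and seed have libraries on both sides of the division. A bin called between leaf and seed therefore could not separate the sets.

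In 2 loci the end bin was called with a smaller share in 1 tissue than in all others. Bin 15, the last of Os04g0308000, held 0.275% in the first panicle library (2 counts) and 0 in the second, where a count of 0 allows up to 0.888%. It held 9.17% and 6.31% in leaf, 13.0% in root (interval 9.74% to 17.1%) and 9.43% and 11.7% in seed. The pooled share was 39.6 times that of panicle in leaf (counting interval 10.5 to 334), 69.1 times in root (18.0 to 589) and 55.0 times in seed (14.7 to 462), with adjusted p = 0.000299, 0.000165 and 4.81e-05. The call against seed held under all 15 alternatives, and those against leaf and root were lost without either panicle library. The call against leaf was also lost in the 4 libraries below 0.3%, and the call against root with the library set as a term. Bins 13 and 14 moved with it, at 10.6% and 8.05% in leaf and 0.423% and 0.137% in panicle. Os04g0308000 did not pass the test of levels in any of these pairs, and its level ran from 13.2 to 29.7 CPM over the libraries.

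The first of the 17 bins of Os01g0633100 held 0.0198% and 0.0700% in seed. It held 3.91% and 4.83% in leaf, 4.98% in root (10 of 201 counts, interval 2.72% to 8.91%) and 3.89% and 5.29% in panicle. The change in usage, as a log2 value, was 6.83 ± 0.85 for leaf against seed (adjusted p = 1.96e-06), 6.82 ± 0.84 for panicle against seed (adjusted p = 1.51e-06) and 7.03 ± 1.06 for root against seed (adjusted p = 0.000444). The locus reached 7100 and 4072 CPM in seed and 9.30 to 56.0 CPM elsewhere, while the bin itself stood at 1.41 and 2.85 CPM in seed and at 0.463 to 2.18 CPM elsewhere. The calls were lost without the first seed library, those for leaf and panicle also in the 4 libraries below 0.3%, and that for root also without the second seed library. Bin 2 was called in the same direction for leaf and panicle against seed.

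A first bin with a small share where its locus was high was also seen in leaf. The first of the 16 bins of Os08g0526300 held 0.883% and 0.802% in leaf, 1.96% and 3.35% in seed, 8.07% and 7.30% in panicle, and 9.97% in root (interval 7.82% to 12.6%). Leaf was lowest, seed next, and root and panicle were highest. Usage differed by a log2 value of -3.20 ± 0.46 for leaf against panicle (adjusted p = 9.08e-05) and -3.57 ± 0.51 for leaf against root (adjusted p = 0.000356). Both calls were lost without either leaf library, and the first also without either panicle library. The locus stood at 491 and 476 CPM in leaf and 23.6 to 99.9 CPM elsewhere, and the bin at 4.33 and 3.82 CPM in leaf and 1.73 to 2.78 CPM elsewhere.

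Root had the corresponding case in a last bin. Bin 10, the last of Os01g0667200, held 0.845% in root (139 of 16457 counts, interval 0.716% to 0.996%). Leaf had 11.8% and 9.30%, panicle 6.80% and 10.5%, and seed 3.92% and 7.33%. As a log2 value, usage changed by 3.62 ± 0.44 for leaf against root (adjusted p = 0.00368) and -3.36 ± 0.44 for root against panicle (adjusted p = 0.00862). The call against panicle was lost with the library set as a term, and both were lost without any 1 of the leaf or panicle libraries. The locus stood at 762 CPM in root and 32.0 to 57.8 CPM elsewhere, and the bin at 6.43 CPM in root and 2.27 to 4.66 CPM elsewhere.

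The weakest of the named results was the first of the 7 bins of Os09g0446800. It held 10.6% and 4.76% in seed and 0.287% in root (8 counts, interval 0.145% to 0.565%). Leaf had 1.63% and 0.886%, and panicle 1.18% and 2.84%. Seed was above every other library, and its replicates differed by more than the lower of them did from panicle. The log2 change in usage was -2.69 ± 0.47 for leaf against seed (adjusted p = 0.0196) and -4.76 ± 0.75 for root against seed (adjusted p = 0.0198), and both were lost in 6 or 7 alternatives, leaving out either leaf library among them. No other bin of the locus was called, and bin 4 held 45.7% to 50.8% in all 7 libraries.

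**Figure D5:**
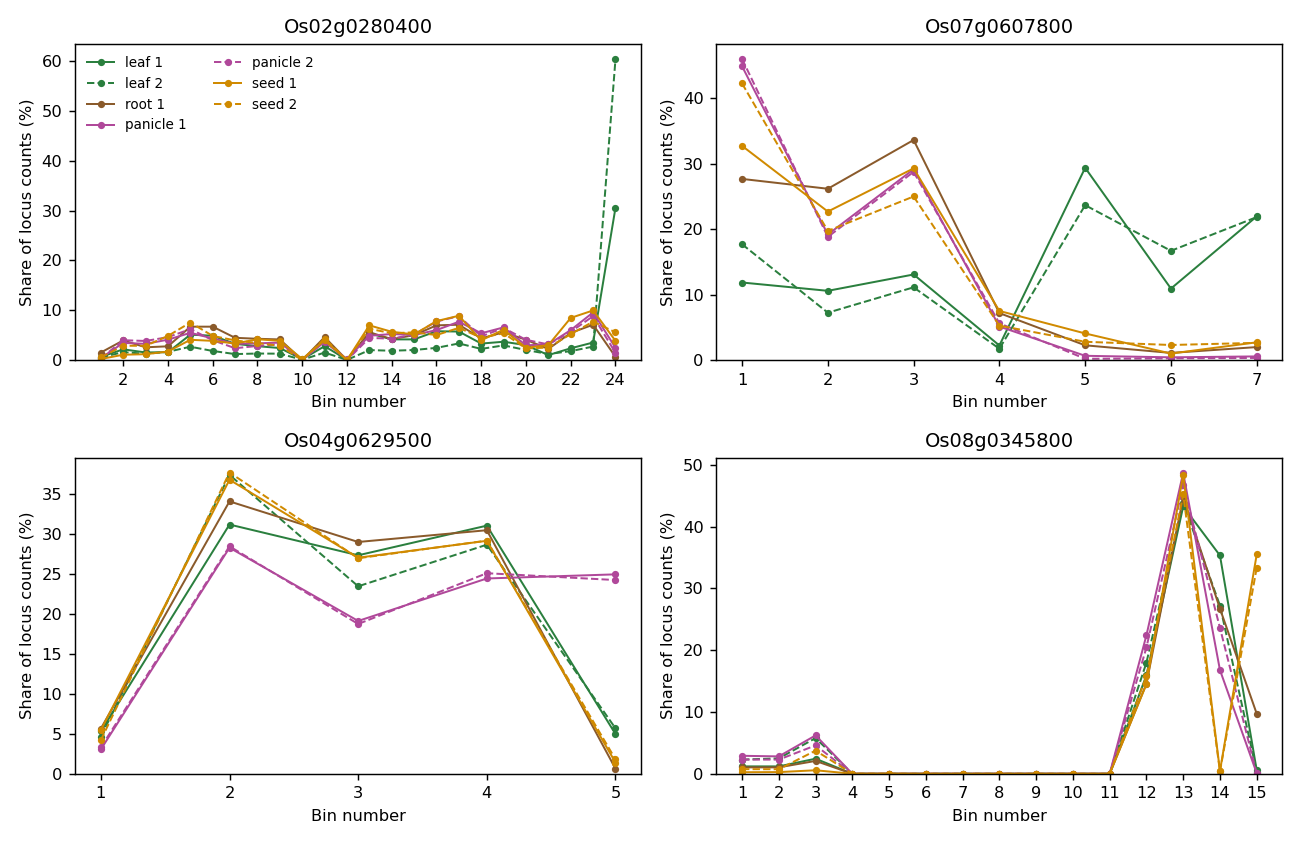
Share of locus counts (%) in each bin, by bin number, for 4 loci in the 7 libraries (solid lines replicate 1, broken lines replicate 2, coloured by tissue). The last bin alone rises in leaf in Os02g0280400 and in panicle in Os04g0629500, bins 5 to 7 rise in leaf in Os07g0607800, and bins 14 and 15 trade places in seed in Os08g0345800.

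End bins that were present in 1 tissue and nearly absent from another were rare. With 5% or more of the locus in every library of 1 tissue and under 0.5% in every library of another, 11 end bins qualified (0.114%), 5 first and 6 last. Among internal bins 10 of 45540 did (0.0220%), and among all bins of these loci 0.038%. Panicle was the low tissue for 6 of the 11, root for 6 and leaf for 1, and seed for none, with 1 bin low in several tissues. Root has 1 library, so it meets either limit more easily than the other tissues. Among the bins low in root, only the last bin of Os06g0113900 was called in any pair. Of the 11, 5 were called in at least 1 pair, among them the end bins of Os04g0308000, Os08g0345800 and the last bin of Os06g0113900.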

How the data were processed

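The authors deposited whole-number counts per exon bin, not normalized, in 1 table per library. Per the submitters' processing notes, the build was IRGSP-1.0 and the tools included HTSeq, TopHat2 2.0.4, bcl2fastq 1.8.4 and SAMtools 1.2, with no role stated. The sources used here give no strand setting, HTSeq version or read filter. Reads over several bins may count in each, so bin sums exceed reads, and overlapping, antisense or near-identical loci cannot be told apart. The 5 rows per table that name no bin (12.2% to 15.8% of counts) were left out.

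Bins were kept with filterByExpr (minimum count 10) where a locus kept at least 2, which left 117658 bins in 18512 loci. edgeR 4.0.16 in R 4.3.3 was used with TMM scaling, estimateDisp, glmQLFit and diffSpliceDGE over 7 libraries and 4 tissue means, with 3 residual degrees of freedom. Levels used glmQLFTest on locus sums. Standard errors are the absolute log2 change over the square root of F. The scripts were tested on simulated data. Intervals and floors (3 counts) cover counting error only.

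Named bins were called, did not overlap between tissues and had the largest difference in mean share (2 per pair and direction, 1 per locus), or were called against all 3 other tissues. Loci with both ends called in 1 pair, and the 2 loci on each side of the count minimum, were part of the same rule. The members, lists and rules were chosen with earlier results of these data known. The alternatives were RLE factors, other count filters, limma 3.58.1 (voom), DESeq2 1.42.0, fewer libraries and a replicate block. A term for the library set, and a fit of the 4 libraries below 0.3%, were added after the data were seen.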

Additional observations from a re-analysis of the deposited data

How the results depend on the processing

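Counts of called end bins moved by over 1.5 times in many alternatives. The order used is leaf with panicle, leaf with seed, panicle with seed, leaf with root, root with panicle and root with seed, and the reported counts are 13, 11, 11, 5, 13 and 2. DESeq2 called 35, 36, 30, 17, 45 and 22. Leaving out 1 library at a time gave 3 to 21, 4 to 13, 4 to 25, 1 to 15, 1 to 27 and 1 to 7. A difference of 10 points or more in share was reached by 4, 3, 3, 2, 2 and 0 of the called bins. Voom called 12 for leaf vs root, 24 for root vs panicle and 8 for root vs seed. Requiring a mean bin count of at least 20 gave 8 for leaf vs root and 4 for root vs seed. With the libraries of both tissues only, leaf vs root gave 9, root vs panicle 74 and root vs seed 1. The replicate block gave 8 for leaf vs root and 5 for root vs seed, and its other counts were within 1.5 times. The replicate numbers were not taken as pairs, because over all bins tested the correlations of replicate deviations were 0.114, 0.219 and 0.0362, not all over 0.1. In end-bin shares they were 0.131, 0.452 and 0.203, all over 0.1, so the check depends on the measure. With the library set as a term, leaf vs root gave 8, root vs panicle 4 and root vs seed 5. The 4 libraries below 0.3% gave 7 for leaf vs panicle and 5 for leaf vs seed, of which 5 and 3 were among those reported. The cause of these moves was not tested. Leaving out libraries also lowers the residual degrees of freedom. No change in usage of a named bin reversed in any alternative run. The median share of both end bins as a mean of the libraries was 16.1% (leaf), 15.3% (root), 16.4% (panicle) and 14.6% (seed). With 500 or more counts per locus it was 13.0%, 12.7%, 13.5% and 11.7%, and with 10 or more bins per locus 10.3%, 10.1%, 10.4% and 9.26%. Summed counts gave 15.1% in root and 15.8% in panicle, and no other tissue moved beyond its spread. Depth limits the small shares: root had 201 counts in Os01g0633100 and 288 in Os08g0345800.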

Other observations

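Of the 11 end bins with 5% or more in 1 tissue and under 0.5% in another, 6 were not called, and 2 of these are given here, chosen after their values were seen. The first of the 17 bins of Os02g0131050 held 9.48% and 11.9% in panicle and 0.160% in root. Leaf had 0.478% and 1.06%, and seed 2.43% and 1.74%, so that both panicle libraries were above all others. The first of the 15 bins of Os05g0108100 held 0.993%, 0.409% and 0.280% in the first leaf, root and first seed libraries. In the second leaf library it held 7.40%, in panicle 5.25% and 5.32%, and in the second seed library 7.21%. It followed the library sets, and the replicates of leaf and of seed fell on opposite sides.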
